A study of Mus musculus with 13 samples.

Results

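Lungs of mice lacking the cannabinoid receptor CB1R were compared with lungs of wildtype (WT) mice, all taken 14 days after bleomycin. Of the 13 libraries of the series, the 9 labelled CB1R KO + Bleomycin (4 libraries) or wild-type+ Bleomycin (5 libraries) make up the comparison. It was read over every gene that passed a filter on low counts, 15315 of 20270. The mice behind all 9 had received bleomycin, 1 U per kg, once through the oropharynx, and the lower right lobe was used. The WT mice were male C57BL/6J mice 13 weeks old per the study's methods, and the CB1R KO mice lacked Cnr1, which encodes CB1R, in every cell (Cnr1-/-), on a C57BL/6J background. The methods read here do not give the age or sex of the CB1R KO mice or whether the genotypes were littermates. They state that the C57BL/6J mice came from a supplier. A difference of age or colony therefore cannot be told apart from one of genotype. Whether the groups differed in sex was not tested. The other 4 libraries are from WT mice labelled Control, which got the saline vehicle in place of bleomycin per the methods. They share 1 estimate of the spread with the rest, and are given below as levels. No CB1R KO lung without bleomycin is among those analysed here, so a difference between the genotypes that was there before bleomycin and one in the response to it cannot be told apart. Libraries are named by the numbers in their labels: 4, 2, 5, 4-B2 and 7 for WT, 8, 9, 10 and 11 for CB1R KO, and 3, 21, 24 and 26 for control. Values of single libraries are given in these orders. WT 4 and 4-B2 share the number 4, and the labels do not explain B2. Whether both came from 1 mouse is not stated in the labels, and each library was fitted as a separate mouse.

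Bleomycin injures the alveolar epithelium, and the repair that follows passes through inflammation into scarring, in which activated fibroblasts lay down collagen, fibronectin and the enzymes that cross-link them. CB1R is a receptor coupled to inhibitory G proteins that binds the lipid messengers anandamide and 2-arachidonoylglycerol. It is best known from neurons, is also made by immune cells, fibroblasts, epithelium and fat, and is studied as a target for blocking fibrosis.

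Lower in CB1R KO lungs were 3 of 39 collagen genes, 2 of 29 matricellular and adhesive glycoproteins (fibronectin and thrombospondin 1), 3 of 17 smooth muscle and contractile markers and 2 of 17 airway secretory markers, and higher were 4 of 17 type II cell markers, 3 of 18 markers of alveolar fibroblasts and 4 of 23 markers of cytotoxic lymphocytes. Between CB1R KO and WT bleomycin lungs, 150 genes passed an adjusted p of 0.05 (0.979% of the genes tested, quasi-likelihood test of edgeR with Benjamini-Hochberg adjustment), of which 95 were lower in CB1R KO (0.62%) and 55 were higher (0.359%). The number depends on the tool: DESeq2 on the same 13 libraries called 640 of the 15602 genes to which it gave an adjusted p (4.1%), 370 lower and 270 higher. In edgeR the fall was more than 2-fold in 30 of the 95 genes, and the rise in 6 of the 55. The median log2 fold change was -0.76 over the lower and 0.56 over the higher genes, while it was 0.00050 over all genes tested, with 7673 genes above 0 and 7642 below. At an unadjusted p under 0.05 there were 1218 higher genes (7.95%) and 1390 lower genes (9.08%).

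**Figure D1:**
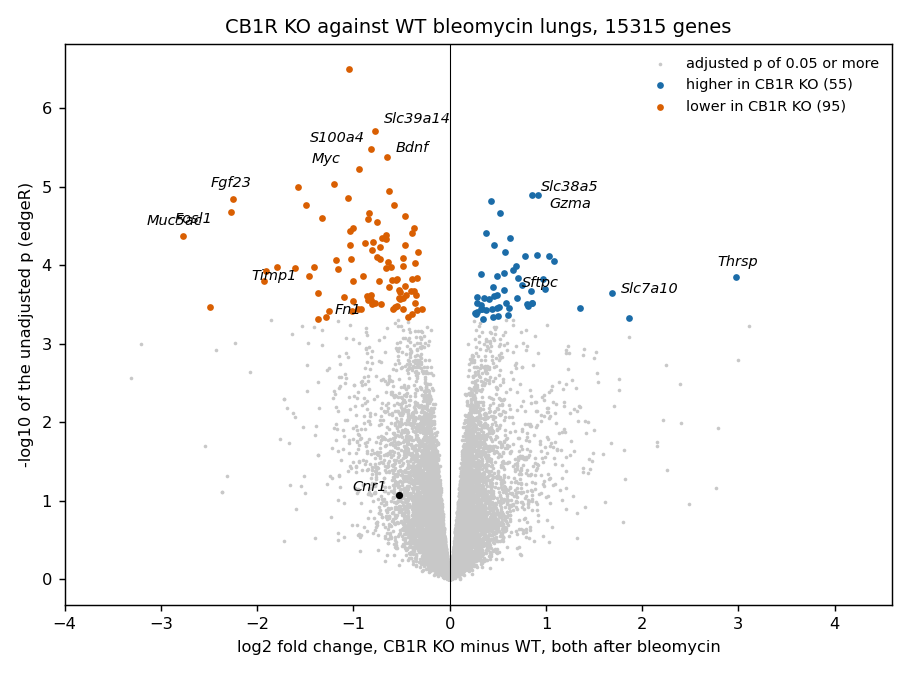
Change and test for each gene. The x axis is the log2 fold change of CB1R KO over WT bleomycin lungs and the y axis the -log10 of the unadjusted p of edgeR. Grey points did not pass the adjusted p of 0.05, orange points are the 95 lower and blue points the 55 higher genes, and Cnr1, in black, lies among the grey points.

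The number of genes past the threshold rested on single libraries. In 66 of the 95 lower genes CB1R KO 10 was the highest of the 4 CB1R KO libraries, and in 38 of the 55 higher genes it was the lowest, so this lung lay nearest to the WT lungs in both directions. Without it 653 genes passed, and without CB1R KO 8, 9 or 11 there were 9, 1 and 3, as the plot of left-out libraries shows. Among WT libraries the number was 24 to 62 without 5, 4-B2, 7 or 2, and 230 without 4. Depth was not alike either: CB1R KO 11 held 53463884 estimated counts and the other 12 libraries 14615904 to 16662580, and with CB1R KO 11 thinned to 16015570 counts 150 genes passed, 139 of them among the 150 first found. The labels of 3 libraries (WT 4-B2 and 7, control 26) are written in capitals and the rest in lower case, with no reason given. With that style as a batch term 41 genes passed, 34 of them among the 150. With the lower-case libraries alone 6 passed, of which Gstm1 was higher and S100a4, Spry4, Tagln and Rcan1 were lower, Rcan1 being named after its values were seen and 1 more gene not being reported here.

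**Figure D2:**
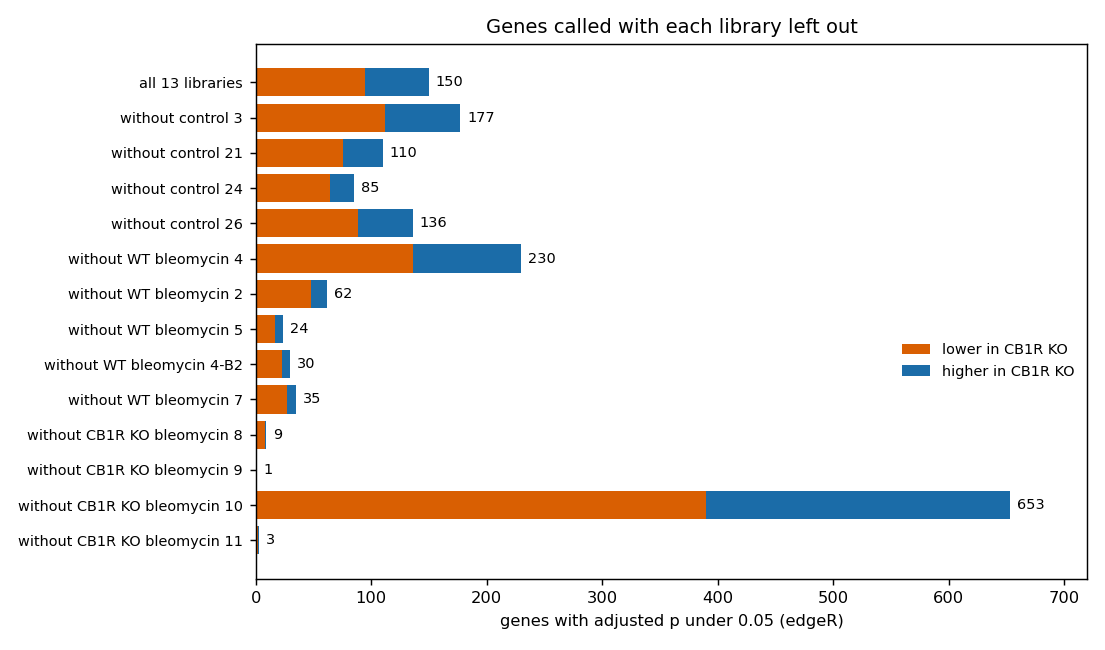
Genes past an adjusted p of 0.05 in edgeR with all 13 libraries and with each library left out in turn. The bars start at 0, orange counts genes lower and blue genes higher in CB1R KO, and the number beside each bar is their sum, from 1 without CB1R KO 9 to 653 without CB1R KO 10.

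Cnr1 was counted in all 9 libraries. Its level in CPM, which are counts relative to the TMM-scaled total of the library, was 6.97, 5.68, 6.56, 3.46 and 6.17 in WT and 5.63, 2.47, 4.6 and 3.47 in the libraries labelled CB1R KO, which overlap, and 4.1, 1.62, 2.88 and 2.06 in control (log2 fold change -0.53 ± 0.28 (SE), adjusted p = 0.367 from edgeR). The counts are sums over the transcripts of a gene and do not show which part of Cnr1 the reads came from, so they do not check the deletion, and every direction given here rests on the labels. Of the 50 protein-coding genes nearest to Cnr1 in gene order, 25 on each side, 37 were tested and 0 passed the adjusted p of 0.05 in edgeR, with 5 higher and 1 lower at an unadjusted p under 0.05 and a median log2 fold change of 0.01. Among 18 genes of endocannabinoid receptors and enzymes, Cnr1 included, 0 passed in edgeR, with 2 higher and 1 lower before adjustment and a median of 0.01. DESeq2 on the same 13 libraries called 0 of these 18 and 2 of the 37.

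The lowest p among the genes reported was that of Slc39a14, a transporter that takes zinc, iron and manganese into cells. It stood at 96.5, 99.8, 83.3, 113 and 111 CPM in WT and 51.1, 54.9, 67.8 and 61.2 CPM in CB1R KO lungs, with control lungs at 23.1, 24.5, 22.5 and 27.7 CPM (log2 fold change -0.77 ± 0.10 (SE), adjusted p = 0.0148 from edgeR). Every CB1R KO lung was below every WT lung and above every control lung. The separation from WT was required of every gene named for its low p, Tagln and Fbln1 among them, and is no separate finding. WT and CB1R KO libraries did not overlap in 87 of the 95 lower and 51 of the 55 higher genes. S100a4, a calcium-binding protein of motile fibroblasts and macrophages, had 46.9, 53.6, 58.7, 53.8 and 62.7 CPM in WT and 31.6, 29.1, 33.9 and 30.6 CPM in CB1R KO lungs (log2 fold change -0.82, adjusted p = 0.016 from edgeR). Its control lungs were at 17.5, 17.1, 14.4 and 11.3 CPM, below both. These genes passed in 23 of the 25 alternative settings each, more than any other gene reported.

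Bdnf, a neurotrophin that signals through the TrkB receptor, fell from 30.4, 26.4, 32.4, 30.5 and 28.6 CPM in WT to 18.8, 20.8, 18.1 and 17.9 CPM in CB1R KO lungs (log2 fold change -0.65, adjusted p = 0.016 from edgeR). Here control lungs, at 28.8, 34.4, 39.1 and 33.4 CPM, lay with or above WT, so that the CB1R KO lungs were the lowest of the 3 groups. The transcription factor Myc had 28.8, 22.4, 33.9, 36.7 and 32.8 CPM in WT and 17.1, 14.7, 17.5 and 15 CPM in CB1R KO lungs (log2 fold change -0.95, adjusted p = 0.0177 from edgeR), against 8.97, 8.23, 10.5 and 11.5 CPM in control. Slc2a1, the glucose carrier GLUT1, had 35.2, 38.9, 35.6, 39.7 and 34.6 CPM in WT and 22.4, 24.5, 29.6 and 22.4 CPM in CB1R KO lungs (log2 fold change -0.58, adjusted p = 0.0177 from edgeR), and its CB1R KO levels were in the range of control (25.7, 22.5, 22.3 and 26 CPM) except for CB1R KO 10. Of the 28 glycolysis genes tested, Slc2a1 was the 1 that passed, with 3 higher and 7 lower before adjustment.

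**Figure D3:**
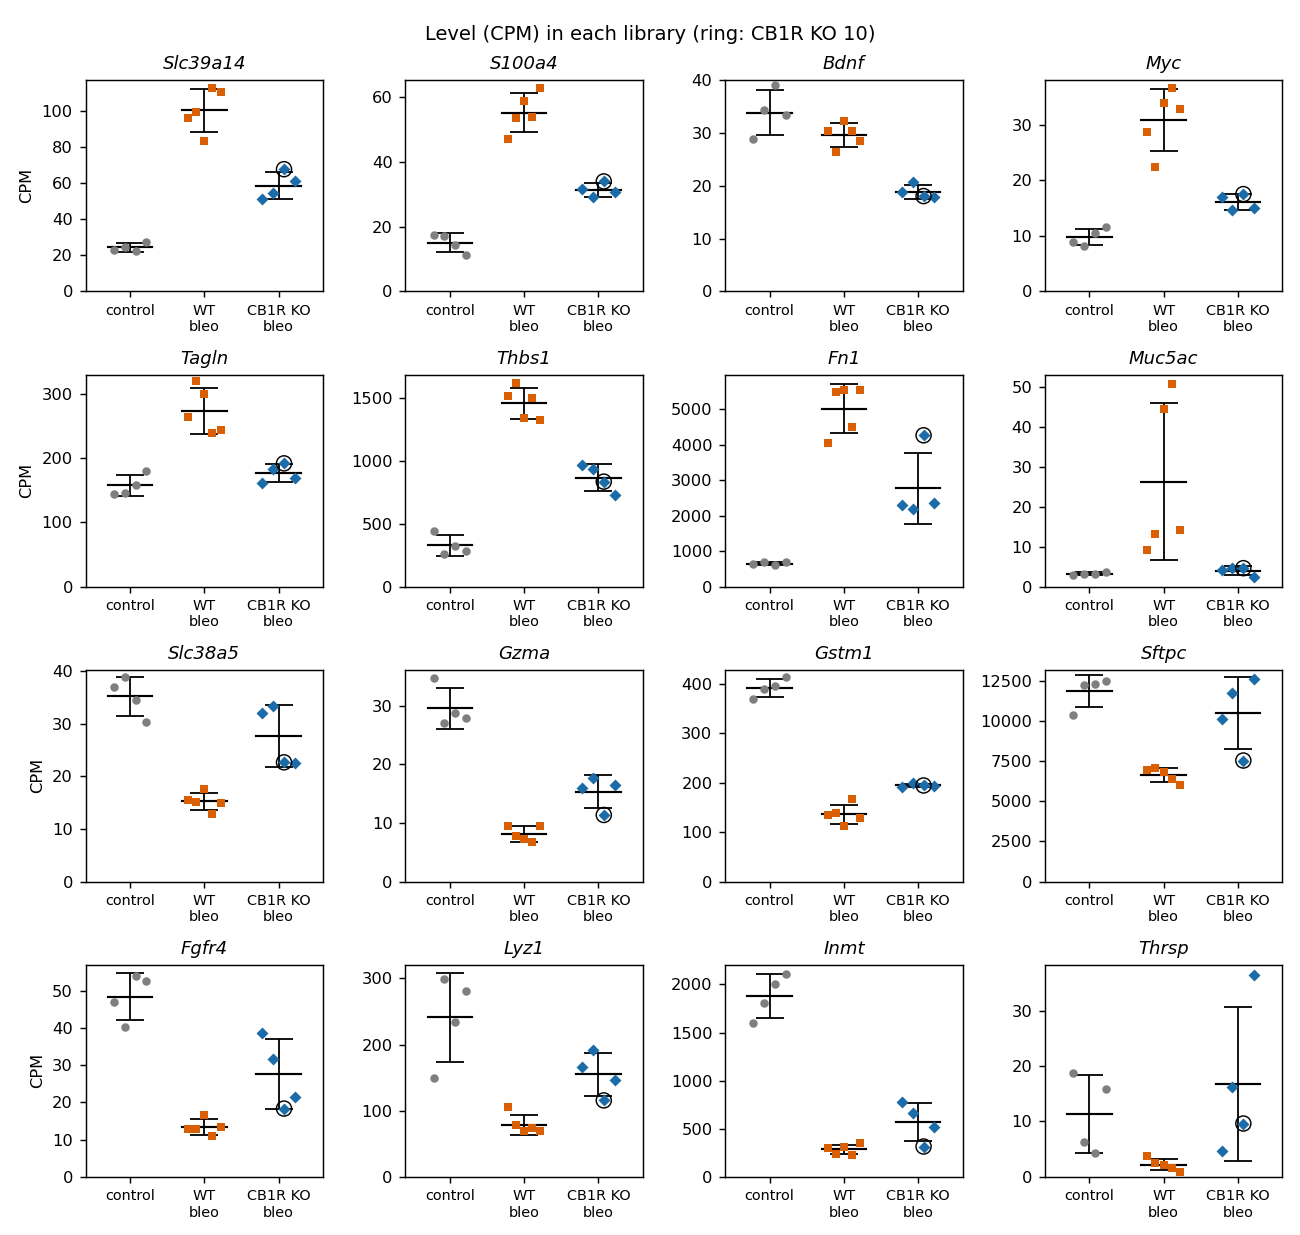
Levels of 16 genes in each library, in CPM. Points are libraries, horizontal bars group means and error bars SD (4 control, 5 WT bleomycin, 4 CB1R KO bleomycin), and each y axis starts at 0. The ring marks CB1R KO 10, which lies nearest to WT in Fn1, Sftpc, Lyz1, Inmt and Fgfr4 and among the other CB1R KO lungs in Bdnf, Gstm1 and Thbs1.

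Several growth factors and proteins that bind or restrain them were among the lower genes. Ereg, the EGF receptor ligand epiregulin, was near the floor in control (0.535, 0.841, 1.54 and 1.61 CPM), at 14.2, 14.2, 11.5, 15.4 and 13 CPM in WT and at 4.45, 4.95, 6.27 and 2.97 CPM in CB1R KO lungs (log2 fold change -1.58 ± 0.24 (SE), adjusted p = 0.0177 from edgeR). Fst encodes follistatin, which binds activins, and had 29.1, 41.1, 41.3, 49.8 and 55.5 CPM in WT and 11.1, 9.89, 22.1 and 18 CPM in CB1R KO lungs (log2 fold change -1.49). Inhba, the activin A subunit that follistatin binds, was also lower, with 31.7, 36.5, 31.2, 42.7 and 39.9 CPM in WT and 12.3, 7.96, 22.6 and 12.3 CPM in CB1R KO lungs (log2 fold change -1.41). In both, the groups did not overlap and CB1R KO 10 was the highest CB1R KO lung. Fgf23, the hormone that lowers blood phosphate, was scarce, with 5.76, 2.66, 3.69, 6.37 and 4.94 CPM in WT, 0.916, 0.663, 0.932 and 1.26 CPM in CB1R KO and 0.0, 0.3, 0.064 and 0.193 CPM in control lungs (log2 fold change -2.25, adjusted p = 0.0177 from edgeR). Fgf2, a mitogen of fibroblasts and endothelium, fell by 0.53 on the log2 scale. Spry4, which feeds back on receptor tyrosine kinase signalling, fell by 0.72.

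Fgf23 is not in the list of 51 genes of IGF, PDGF, FGF, EGF, VEGF, HGF and neurotrophin signalling. Of that list 4 were lower and 1 was higher after adjustment (Bdnf, Ereg, Fgf2 and Spry4 against Fgfr4), with a median log2 fold change of -0.06, while 10 were lower and 6 higher before adjustment. Of 28 TGF-beta ligands, receptors and feedback genes, 2 were lower (Inhba and Fst) and 11 were lower against 1 higher before adjustment. Ccn2, connective tissue growth factor, had 595, 553, 639.7, 718 and 798 CPM in WT and 338, 406, 460.2 and 382 CPM in CB1R KO lungs, which do not overlap, and its adjusted p was 0.0638 from edgeR, above the threshold. Wnt11, a ligand of non-canonical Wnt signalling, was lower by a log2 fold change of -0.81. The CB1R KO lungs, at 8.57, 7.96, 7.89 and 7.81 CPM, were below every WT lung (13.6, 13.7, 12.8, 15.2 and 15.1 CPM).

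Among transcription factors of the AP-1 family, Fosl1 (Fra-1) and Fosl2 (Fra-2) were the members of 28 AP-1 and immediate early genes that passed, both lower. Fosl1 was close to the limit of detection, at 0.95, 1.05, 1.19, 1.94 and 1.11 CPM in WT and 0.458, 0.241, 0.311 and 0.129 CPM in CB1R KO lungs (log2 fold change -2.28 ± 0.37 (SE), adjusted p = 0.0186 from edgeR). Fosl2 was well expressed, at 217, 219, 193, 233 and 191 CPM in WT and 150.2, 162, 159.8 and 132 CPM in CB1R KO lungs (log2 fold change -0.48, adjusted p = 0.0391 from edgeR). The list had 7 members lower and 0 higher before adjustment and a median of -0.18. The letters that AP-1 factors bind, TGANTCA, which read alike on both strands, were looked for in the 250 bases before each start in the RefSeq table of GRCm38.p6, a different build from the authors' and matched by symbol. They were present before 8 of the 61 lower genes with a promoter in the table (13.1%), 1 of 45 higher genes (2.22%), 6.18% of the 12064 tested genes with a promoter and 6.75% of all 32851 promoters. These are counts with no test, and a match is not a binding site.

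Among the lower genes named in the text, Bdnf, Mmp3, Cldn4 and Rcan1 had such letters. The promoters of the 3 whose levels are described are shown, 250 bases up to the base before the start, with TGANTCA in capitals. Bdnf is on chromosome 2, plus strand (chr2:109676782-109677031), Mmp3 on chromosome 9, plus strand (chr9:7445572-7445821), and Cldn4 on chromosome 5, minus strand (chr5:134946935-134947184), in GRCm38.p6.
Bdnf: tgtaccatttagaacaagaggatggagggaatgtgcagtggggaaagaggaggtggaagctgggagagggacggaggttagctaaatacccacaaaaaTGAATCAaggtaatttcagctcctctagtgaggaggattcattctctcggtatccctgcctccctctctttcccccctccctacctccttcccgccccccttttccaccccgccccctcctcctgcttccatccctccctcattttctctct
Mmp3: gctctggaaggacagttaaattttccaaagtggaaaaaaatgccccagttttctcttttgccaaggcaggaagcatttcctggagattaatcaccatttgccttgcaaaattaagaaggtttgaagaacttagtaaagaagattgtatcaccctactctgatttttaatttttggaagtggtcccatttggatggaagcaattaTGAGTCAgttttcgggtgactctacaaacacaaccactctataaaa
Cldn4: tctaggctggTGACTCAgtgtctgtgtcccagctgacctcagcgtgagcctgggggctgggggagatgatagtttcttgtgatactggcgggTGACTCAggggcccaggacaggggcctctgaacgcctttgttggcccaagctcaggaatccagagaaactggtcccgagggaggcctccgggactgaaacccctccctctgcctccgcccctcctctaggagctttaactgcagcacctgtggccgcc
The motif starts 152 bases before the start of Bdnf, which is 1 of several starts of that gene, 46 bases before that of Mmp3, 240 and 158 bases before that of Cldn4, and 110 bases before that of Rcan1. The palindromes TGACGTCA, bound by CREB, and TTCCNGGAA, bound by STAT factors, were each before 1 of the 61 lower genes (1.64%) and before 1 (2.22%) and 2 (4.44%) of the 45 higher genes, against 2.74% and 1.3% of tested genes and 1.55% and 0.913% of all promoters.

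Among matricellular and adhesive glycoproteins, Fn1, which encodes fibronectin, and Thbs1 were lower. For Fn1, WT lungs had 4052, 5484, 5535, 4516 and 5534 CPM, CB1R KO lungs 2307, 2176, 4269 and 2351 CPM and control lungs 623, 690.5, 596 and 688 CPM (log2 fold change -0.86 ± 0.18 (SE), adjusted p = 0.0389 from edgeR). CB1R KO 10 reached into the WT range, while the other 3 lungs were far below it. Thbs1, thrombospondin 1, which activates latent TGF-beta, had 1514, 1617, 1344, 1503 and 1325 CPM in WT and 968, 938, 835 and 726 CPM in CB1R KO lungs (log2 fold change -0.75, adjusted p = 0.0266 from edgeR), and here CB1R KO 10 was within the other CB1R KO lungs. Of 29 matricellular and adhesive glycoproteins, these 2 passed, 16 were lower and 2 higher before adjustment, and the median was -0.36.

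Of 39 collagen genes, 3 were lower after adjustment and 0 higher, with 17 lower and 2 higher before it and a median log2 fold change of -0.30. Those that passed were Col12a1 (log2 fold change -0.51), Col18a1 (-0.43) and Col28a1 (-1.0), none of them a chain of collagen I or III. Col28a1, of the beaded collagen XXVIII, had 27.8, 34.6, 42.7, 26.7 and 46.2 CPM in WT and 18.2, 15, 23 and 15.2 CPM in CB1R KO lungs, against 2.26, 4.63, 2.95 and 1.93 CPM in control. The fibrillar chains did not pass: Col1a2 had 1737, 2403, 2426, 2109.5 and 2659 CPM in WT and 1099.9, 1098, 2026 and 1921 CPM in CB1R KO lungs (log2 fold change -0.56, adjusted p = 0.149 from edgeR). For Col3a1 the levels were 2442, 3189, 3337, 2594 and 3371 and 1995, 1862, 2726 and 2876 CPM (log2 fold change -0.34, adjusted p = 0.347 from edgeR). In both chains CB1R KO 8 and 9 were below all WT lungs and CB1R KO 10 and 11 were within the WT range. Summed over the tested collagens, WT lungs had 13460 to 18110 CPM, CB1R KO lungs 11030, 11070, 14650 and 14310 CPM, and control lungs 4392 to 5353 CPM.

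Genes for the processing of collagen changed in both directions. P4ha3, a prolyl hydroxylase subunit, had 16.6, 21.4, 22.3, 23.2 and 22.5 CPM in WT, 7.91, 6.75, 14.5 and 12.1 CPM in CB1R KO and 1.37, 1.74, 1.22 and 1.29 CPM in control lungs (log2 fold change -1.03, adjusted p = 0.0266 from edgeR). Lox, lysyl oxidase, which cross-links collagen and elastin, had 294, 365, 355, 398 and 442 CPM in WT and 144, 171, 313 and 197 CPM in CB1R KO lungs (log2 fold change -0.85), with CB1R KO 10 again inside the WT range. Pcolce2, which enhances the cleavage of procollagen, was higher (log2 fold change 0.81), at 92.4, 82.8, 87.1, 76.5 and 95 CPM in WT and 201, 189.9, 90.5 and 126 CPM in CB1R KO lungs. Over the 31 genes of this list, 2 were lower and 1 was higher, with 15 and 2 before adjustment and a median of -0.20.

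Of 16 metalloproteinases tested, 1 was lower and 1 higher. Mmp3, stromelysin 1, was lower, at 63.9, 64, 53.1, 47.4 and 81.8 CPM in WT and 29.9, 24.4, 36.2 and 28.9 CPM in CB1R KO lungs (log2 fold change -1.06, adjusted p = 0.0177 from edgeR), and Mmp28, epilysin, was higher, at 16.4, 14.8, 17.7, 12.9 and 19.4 and 25.2, 27.7, 20.9 and 22.6 CPM (log2 fold change 0.56). The other 14 did not pass. Timp1, an inhibitor of these enzymes, had 96, 117, 123, 143 and 145 CPM in WT and 30.1, 32.3, 76.4 and 42.2 CPM in CB1R KO lungs, against 3.27, 9.73, 4.29 and 3.41 CPM in control (log2 fold change -1.46, adjusted p = 0.0314 from edgeR). Serpine2, an inhibitor of thrombin and plasminogen activators, fell by 0.55 on the log2 scale, with CB1R KO 10 above the lowest WT lung. A2m, a broad protease inhibitor, did not pass (log2 fold change -1.33, adjusted p = 0.0658 from edgeR). Timp1 and Serpine2 were the called members of a list of 7 genes named for metalloproteinase inhibitors, of which Serpine2 acts on serine proteases, and 0 were higher after adjustment.

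In blood clotting and its dissolution, Plat, tissue plasminogen activator, had 114, 124, 115, 127 and 114 CPM in WT and 72.7, 92.7, 94.2 and 84.2 CPM in CB1R KO lungs (log2 fold change -0.47, adjusted p = 0.0187 from edgeR), while Thbd, the endothelial thrombin receptor thrombomodulin, had 611, 495, 599.7, 528 and 501 and 839, 787, 686 and 758 CPM (log2 fold change 0.49). The list of 26 genes had 2 lower, Plat and Serpine2, and 1 higher, Thbd, with 7 and 1 before adjustment. CB1R KO lungs were the lowest of the 3 groups in Htra4, a secreted serine protease, with 5.51, 4.45, 4.75, 4.57 and 5.18 CPM in WT, 2.62, 2.65, 2.73 and 2.92 CPM in CB1R KO and 3.74, 4.21, 3.39 and 3.67 CPM in control lungs (log2 fold change -0.83). Elastic fibre genes split: fibulin 1, Fbln1, was higher (log2 fold change 0.43) and Efemp2, fibulin 4, lower (-0.40), and the remaining 18 of 20 did not pass. Fbln1 stood at 121, 119.7, 108 and 109 CPM in CB1R KO lungs, above every WT lung (81.5, 83, 86.9, 81.4 and 92.2 CPM) and every control lung (83.9, 96.9, 80.4 and 81.2 CPM).

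Contractile genes were among the lower genes. Tagln, the actin-binding protein transgelin of smooth muscle and myofibroblasts, had 263, 321, 300.4, 239 and 244 CPM in WT, 161, 184, 192 and 169 CPM in CB1R KO and 145, 146, 158 and 180.4 CPM in control lungs (log2 fold change -0.63, adjusted p = 0.0177 from edgeR), with WT and CB1R KO lungs apart. Actg2, smooth muscle gamma actin, had 31.5, 44, 37.9, 36 and 36.6 CPM in WT and 18.7, 24.8, 25.8 and 16.9 CPM in CB1R KO lungs (log2 fold change -0.80). Tpm2, beta tropomyosin, fell by 0.37 on the log2 scale. Acta2, alpha smooth muscle actin, stood at 279.9, 399, 308, 232 and 252 CPM in WT and 189, 209.6, 229.6 and 186 CPM in CB1R KO lungs, also without overlap, and did not pass (log2 fold change -0.53, adjusted p = 0.0728 from edgeR). Of the 17 smooth muscle and contractile markers, 3 were lower and 0 higher, 7 were lower and 1 higher before adjustment, and the median was -0.11. Without regard to p, 12 had a log2 fold change below 0 and 5 above. The sums of these 17 overlapped, at 2130 to 2738 CPM in WT, 2124 to 2339 CPM in CB1R KO and 2144 to 2501 CPM in control lungs. Of 12 markers of activated fibroblasts, Col12a1 passed, 7 were lower before adjustment, and the median was -0.48. Their summed level was 2087 to 2613 CPM in WT, 1718 to 2121 CPM in CB1R KO and 1411 to 1439 CPM in control lungs. Whether fewer cells of a type or less RNA per cell stands behind such a sum cannot be told apart in RNA of whole lung.

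On the airway and injured epithelium, the widest falls were in mucus genes. Muc5ac, the gel-forming mucin of goblet cells, ranged from 9.12 to 50.6 CPM in WT (9.12, 13.2, 44.4, 50.6 and 14.1) and was at 4.25, 4.64, 4.6 and 2.38 CPM in CB1R KO lungs, near control (2.79, 3.12, 3.14 and 3.67 CPM; log2 fold change -2.77 ± 0.48 (SE), adjusted p = 0.0219 from edgeR). Fcgbp, a mucus protein that binds mucins, was likewise highest in WT 5 and 4-B2 and had 7.54, 9.39, 43.3, 20.8 and 9.38 CPM in WT and 4.64, 2.77, 4.6 and 1.42 CPM in CB1R KO lungs (log2 fold change -2.50 ± 0.54 (SE), adjusted p = 0.0416 from edgeR). Muc5b, the other gel-forming airway mucin, did not pass (90.3, 112, 208, 260.2 and 157 against 73.6, 90.3, 56 and 31.1 CPM; log2 fold change -1.41, adjusted p = 0.0552 from edgeR), WT 4 and CB1R KO 9 being level. Of 17 airway secretory markers, Muc5ac and Hp, haptoglobin (log2 fold change -0.34), were lower, 11 were lower before adjustment and 0 higher, and the median was -0.81. The summed level of these markers overlapped, with 9813 to 15450 CPM in WT and 9825 to 11640 CPM in CB1R KO lungs. Ciliated cell markers were at 1227 to 1618 CPM in WT and 1114 to 1737 CPM in CB1R KO lungs, and 0 of 20 passed in edgeR, with 5 lower before adjustment.

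Claudins seal the junctions between epithelial cells, and 2 of the 13 tested were lower. Cldn4, which is high in injured and transitional alveolar cells, had 57.7, 50.0, 65.4, 98.9 and 75.2 CPM in WT, 33.2, 31.8, 46.6 and 37.1 CPM in CB1R KO and 6.95, 8.65, 5.76 and 7.86 CPM in control lungs (log2 fold change -0.90, adjusted p = 0.0314 from edgeR). Cldn2, a claudin that forms cation pores, had 5, 5.74, 5.62, 12 and 7.41 CPM in WT and 2.09, 2.17, 3.04 and 2.09 CPM in CB1R KO lungs (log2 fold change -1.61). Cldn4 was the 1 of 18 transitional and basal cell markers that passed, and 8 were lower and 0 higher before adjustment, with a median of -0.24. Aldh1a3, an enzyme of retinoic acid synthesis, was lower as well (log2 fold change -1.36), while Aox3, an aldehyde oxidase, was higher (0.40).

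The lists of the IL-6 family, the TNF superfamily and chemokines had 1 or 2 members past the threshold each, all lower. Socs3, the feedback inhibitor of IL-6 family signalling, had 287, 188, 314, 364 and 203 CPM in WT, 137, 108, 161 and 122 CPM in CB1R KO and 54.5, 44.2, 39.2 and 37.8 CPM in control lungs (log2 fold change -1.04, adjusted p = 0.0231 from edgeR), and was the 1 of 21 genes of the IL-6 family list that passed, with 9 lower and 1 higher before adjustment. Tnfsf18, the ligand of GITR, had 6.52, 7.17, 6.25, 8.1 and 9.32 CPM in WT and 0.785, 0.844, 4.54 and 1.72 CPM in CB1R KO lungs (log2 fold change -1.93 ± 0.38 (SE)), with CB1R KO 10 above the other 3. It and Tnfrsf12a, the TWEAK receptor (log2 fold change -0.60), were the 2 of 40 TNF superfamily genes that passed, with 10 lower and 3 higher before adjustment. Ccl2, which draws monocytes, was the 1 of 59 chemokines and receptors that passed, at 9.69, 8.83, 8.56, 11.1 and 10.9 CPM in WT and 5.3, 1.81, 5.9 and 3.25 CPM in CB1R KO lungs (log2 fold change -1.29, adjusted p = 0.0478 from edgeR). The related chemokine Ccl7 did not pass (log2 fold change -1.16, adjusted p = 0.0728 from edgeR). Before adjustment 12 of the 59 were lower and 6 higher. Over all genes tested, 0.62% were lower after adjustment and 9.08% before it. Ptger4, a receptor of prostaglandin E2 that raises cAMP, fell by 0.66 on the log2 scale, Rgs16, which shortens G protein signalling, by 1.16, Cfb, complement factor B, by 0.63, Plk3, a stress-responsive kinase, by 0.66, and Itga5, the fibronectin receptor chain, by 0.48. Megf11 was at 12.7, 15.3, 13.1, 15.9 and 15.8 CPM in WT and 5.17, 5.07, 9.13 and 5.98 CPM in CB1R KO lungs (log2 fold change -1.20).

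Macrophage and neutrophil lists gave no gene past the adjusted p in edgeR. Of 24 markers of monocyte-derived and scar-associated macrophages, 0 passed, with 9 lower and 1 higher before adjustment, a median of -0.21 and summed levels of 6098 to 6708 CPM in WT and 4600 to 6345 CPM in CB1R KO lungs. Of 17 alveolar macrophage markers, 0 passed and 6 were higher before adjustment. Of 12 neutrophil markers, 0 passed and 3 were lower before adjustment. Of 41 interferon-stimulated genes, 0 passed and 2 were lower before adjustment, and of 40 genes of mitosis, 0 passed with or without adjustment. The mitosis genes differed widely among the CB1R KO lungs, with sums of 440.9, 574.5, 1002 and 1220 CPM in CB1R KO and 711 to 1095 CPM in WT lungs. DESeq2 called 1 of the 24, 3 of the 17, 0 of the 12, 0 of the 41 and 0 of the 40. Of 84 cytosolic ribosomal protein genes, 41 were lower and 1 higher before adjustment and 0 after it in edgeR (DESeq2, 15), with a median of -0.18 and summed levels of 24590 to 28910 CPM in WT and 21920 to 24790 CPM in CB1R KO lungs. The highest WT sums, 28910 and 27520 CPM, were those of 4-B2 and 7, whose labels are in capitals. WT 4, 2 and 5 had 24590, 24670 and 26320 CPM, beside 21920, 22190, 24710 and 24790 CPM in CB1R KO 8, 9, 10 and 11. CB1R KO 8 and 9 were thus below every WT library, while CB1R KO 10 and 11 were within the WT range.

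On the higher side, 4 of 17 markers of the surfactant-making type II alveolar cells passed. Sftpc, surfactant protein C, was among the most abundant transcripts, at 6933, 7087, 6794, 6371 and 6004 CPM in WT and 10083, 11737, 7528 and 12615 CPM in CB1R KO lungs, against 10352, 12193, 12284 and 12479 CPM in control (log2 fold change 0.66 ± 0.13 (SE), adjusted p = 0.0289 from edgeR). Sftpa1, surfactant protein A, had 1372, 1367, 1303, 1050.0 and 1165 CPM in WT and 2733, 2907, 1446 and 1878 CPM in CB1R KO lungs (log2 fold change 0.84), and Lamp3, a membrane protein of lamellar bodies, 378, 392, 313, 295 and 313 and 510.4, 577, 406 and 434 CPM (0.51). In each of these genes all CB1R KO lungs were above all WT lungs, and CB1R KO 10 was the lowest of them. Lyz1, lysozyme of type II cells, nearly matches Lyz2 in sequence, so the split of reads between both is uncertain, and it had 105, 78, 69.2, 73.6 and 68.8 CPM in WT and 165, 192, 115 and 146 CPM in CB1R KO lungs (log2 fold change 0.97). Of the 17 markers, 0 were lower after adjustment, 13 were higher before it, CB1R KO lay above WT without overlap in 9, and the median was 0.38 (over all genes tested, CB1R KO libraries lay above WT without overlap in 2.5% and below in 3.1%). Their summed level was 15100 to 17710 CPM in WT, 23890, 27230, 18170 and 25380 CPM in CB1R KO and 22960 to 26670 CPM in control lungs. Of 16 markers of type I cells, the flat cells of gas exchange, 0 passed in edgeR and 1 in DESeq2, with 4 higher and 1 lower before adjustment in edgeR.

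**Figure D4:**
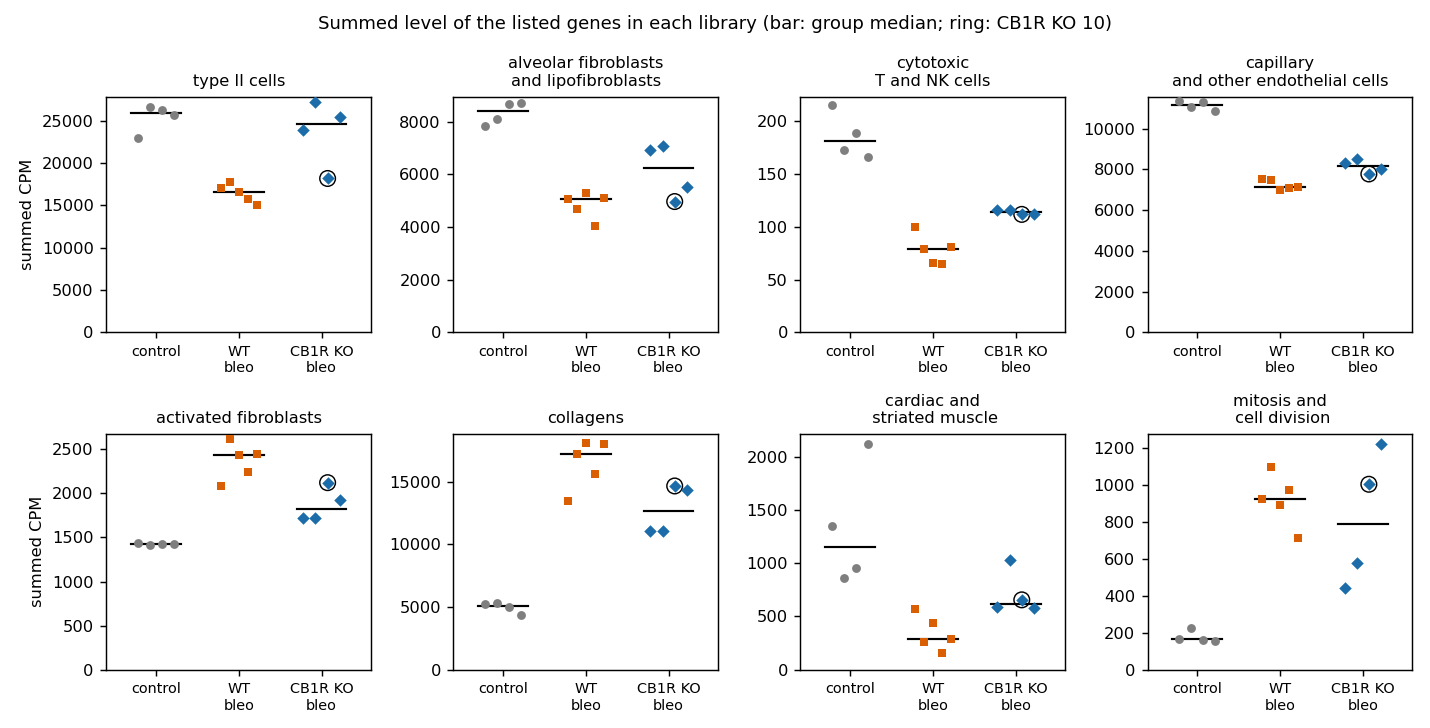
Summed CPM of 8 gene lists in each library, with the group median as a bar and each y axis starting at 0. The ring marks CB1R KO 10. The lists of type II cells, cytotoxic T and NK cells, endothelial cells and striated muscle have every CB1R KO lung above every WT lung, while mitosis genes spread more widely among CB1R KO lungs than among WT lungs.

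Of 18 markers of alveolar fibroblasts, including the lipid-storing lipofibroblasts beside type II cells, 3 passed, all higher. Fgfr4, an FGF receptor, had 12.7, 12.9, 16.7, 10.9 and 13.5 CPM in WT and 38.7, 31.8, 18.3 and 21.4 CPM in CB1R KO lungs, with control at 47, 40.2, 54 and 52.6 CPM (log2 fold change 1.04, adjusted p = 0.0266 from edgeR). Inmt, an amine methyltransferase, had 301, 239, 304, 231 and 349 CPM in WT and 776, 659, 314 and 518 CPM in CB1R KO lungs, with CB1R KO 10 inside the WT range (log2 fold change 0.99, adjusted p = 0.0371 from edgeR). Slc7a10, a transporter of small neutral amino acids, had 5.19, 3.15, 2.87, 2.84 and 5.68 CPM in WT and 19.9, 18.5, 6.09 and 7.25 CPM in CB1R KO lungs (log2 fold change 1.68 ± 0.35 (SE)), so that CB1R KO 8 and 9 were well above CB1R KO 10 and 11. Before adjustment 12 of the 18 were higher and 0 lower, CB1R KO lay above WT without overlap in 2, and the median was 0.37. The summed level was 4031 to 5291 CPM in WT and 6916, 7059, 4965 and 5531 CPM in CB1R KO lungs, where CB1R KO 10 overlaps WT, and 7846 to 8711 CPM in control.

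Of 23 markers of cytotoxic T and natural killer cells, 4 passed, all higher. Gzma, granzyme A of natural killer and T cells, had 9.44, 7.72, 7.19, 6.71 and 9.56 CPM in WT, 15.9, 17.7, 11.4 and 16.5 CPM in CB1R KO and 34.7, 27, 28.8 and 27.8 CPM in control lungs (log2 fold change 0.92, adjusted p = 0.0177 from edgeR). Prf1, perforin, had 4.24, 4.08, 3.62, 3.05 and 4.2 CPM in WT and 7.13, 7.6, 5.03 and 6.11 CPM in CB1R KO lungs (log2 fold change 0.75), and Nkg7, a granule protein, and S1pr5, a sphingosine-1-phosphate receptor of natural killer cells, both rose by a log2 fold change of 0.86. Before adjustment 17 of the 23 were higher and 0 lower, CB1R KO lay above WT without overlap in 7, and the median was 0.50. The sums did not overlap, at 64.44 to 100.3 CPM in WT, 111.9 to 116.2 CPM in CB1R KO and 166.6 to 216 CPM in control lungs. General T cell markers, at 174.7 to 254.1 CPM in WT and 213.4 to 237.4 CPM in CB1R KO lungs, overlapped, and 0 of 18 passed in edgeR, with 2 higher and 2 lower before adjustment (DESeq2, 2). Of 19 B cell and plasma cell markers, 0 passed in edgeR, with 2 higher and 1 lower before adjustment (DESeq2, 0).

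Of 25 endothelial markers, Tek, the angiopoietin receptor Tie2, was higher (238, 264, 229, 219.9 and 223 CPM in WT and 290.0, 279, 282 and 294 CPM in CB1R KO lungs; log2 fold change 0.29, adjusted p = 0.0391 from edgeR), 9 were higher and 0 lower before adjustment, and the summed levels did not overlap, at 6981 to 7527 CPM in WT and 7772 to 8497 CPM in CB1R KO lungs.

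Several leading higher genes belonged to none of these cell lists. Slc38a5, a carrier of glutamine and related amino acids, had 15.6, 15.1, 17.6, 12.9 and 14.9 CPM in WT, 32, 33.4, 22.7 and 22.5 CPM in CB1R KO and 37, 38.9, 34.5 and 30.4 CPM in control lungs (log2 fold change 0.85 ± 0.13 (SE), adjusted p = 0.0177 from edgeR). Gstm1, a glutathione transferase, had 134, 138, 113, 166 and 129 CPM in WT and 192, 199, 194 and 194 CPM in CB1R KO lungs, against 369, 389, 396 and 412 CPM in control (log2 fold change 0.52, adjusted p = 0.0186 from edgeR). Its family holds close copies, and reads could be split between them. Edn3, endothelin 3, had 11.8, 10.0, 9, 10.2 and 8.82 CPM in WT and 18.8, 18.9, 12.7 and 14 CPM in CB1R KO lungs (log2 fold change 0.69), and Car14, a membrane carbonic anhydrase, 10.6, 8.46, 10.9, 12.8 and 8.08 and 19.4, 13.6, 20.7 and 22 CPM (0.90). Spink5, a serine protease inhibitor of epithelia, rose by a log2 fold change of 1.08 and Pgr, the progesterone receptor, by 1.35, from 5.32, 5.81, 2.75, 4.71 and 3.95 to 8.83, 11.6, 7.21 and 10.4 CPM and from 1.27, 1.36, 1.69, 1.04 and 0.617 to 3.66, 3.56, 2.36 and 2.73 CPM. Ripply3, a transcriptional repressor, Mib2, a ubiquitin ligase of Notch ligands, Sema4f, a semaphorin, Wscd1, Mamdc2 and Vldlr, a lipoprotein receptor, rose by log2 fold changes of 0.38, 0.46, 0.57, 0.63, 0.78 and 0.45. Sema4f stood at 37, 37, 27.4 and 34.9 CPM in CB1R KO lungs, and control lungs (23.6, 28.4, 28.9 and 25.1 CPM) overlapped WT (22.7, 23.8, 26.5, 20.8 and 20.7 CPM).

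The widest rise among genes past the threshold was that of Thrsp, a regulator of fat synthesis, with 3.74, 2.47, 2.19, 1.59 and 0.926 CPM in WT, 4.71, 16.2, 9.63 and 36.5 CPM in CB1R KO and 18.7, 6.31, 4.29 and 15.9 CPM in control lungs (log2 fold change 2.97 ± 0.58 (SE), adjusted p = 0.0314 from edgeR). CB1R KO 11 and 9 were the highest, and the same libraries were highest in adipocyte markers. Of the 14 adipocyte markers tested, 0 passed in edgeR (DESeq2, 3) and 9 were higher before adjustment, with a median of 1.06. Their sums were 538.7 to 795.4 CPM in WT, 596.3, 873.3, 690.5 and 824.7 CPM in CB1R KO and 381.5 to 829.6 CPM in control lungs, so that WT and CB1R KO overlapped. Of these markers 13 had a log2 fold change above 0 and 1 below, Lpl (-0.21), which is among the most abundant of them. Cidec and Fabp4 are also counted among the alveolar macrophage markers. Retn, resistin, stood at 1.58, 1.11, 0.437, 0.554 and 0.679 CPM in WT and 1.44, 5.07, 1.93 and 7.75 CPM in CB1R KO lungs (adjusted p = 0.0805 from edgeR), and Cidec, a lipid droplet protein, at 9.38, 4.88, 4.62, 3.74 and 3.15 and 6.28, 23.5, 9.57 and 18.5 CPM (adjusted p = 0.074 from edgeR). Thrsp was the 1 of 37 genes of fatty acid and triglyceride synthesis that passed, and 14 were higher and 0 lower before adjustment, with a median of 0.21. The part of fat tissue in these levels was not tested.

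Ckmt2, the mitochondrial creatine kinase of striated muscle, had 3.74, 1.42, 3.12, 1.25 and 2.1 CPM in WT, 4.97, 14.9, 5.72 and 8.34 CPM in CB1R KO and 15.5, 9.07, 8.58 and 24.7 CPM in control lungs (log2 fold change 1.86 ± 0.41 (SE), adjusted p = 0.0488 from edgeR). Heart muscle extends into the walls of mouse pulmonary veins. Of 17 cardiac and striated muscle markers tested, 0 passed in edgeR (DESeq2, 3), 11 were higher and 1 was lower before adjustment, and the median was 1.01. Their sums were 154.4 to 569.4 CPM in WT, 575.7 to 1029 CPM in CB1R KO and 858.3 to 2115 CPM in control lungs. Myh6, the atrial myosin heavy chain, had 242, 94.5, 178, 50.0 and 118 CPM in WT and 248, 455, 283 and 259 CPM in CB1R KO lungs, without overlap (log2 fold change 1.19, adjusted p = 0.133 from edgeR). How much vein wall each piece of lobe held was not tested. Red blood cell genes gave 0 of 7 past the adjusted p in edgeR (DESeq2, 0), with 2 higher before adjustment.

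**Figure D5:**
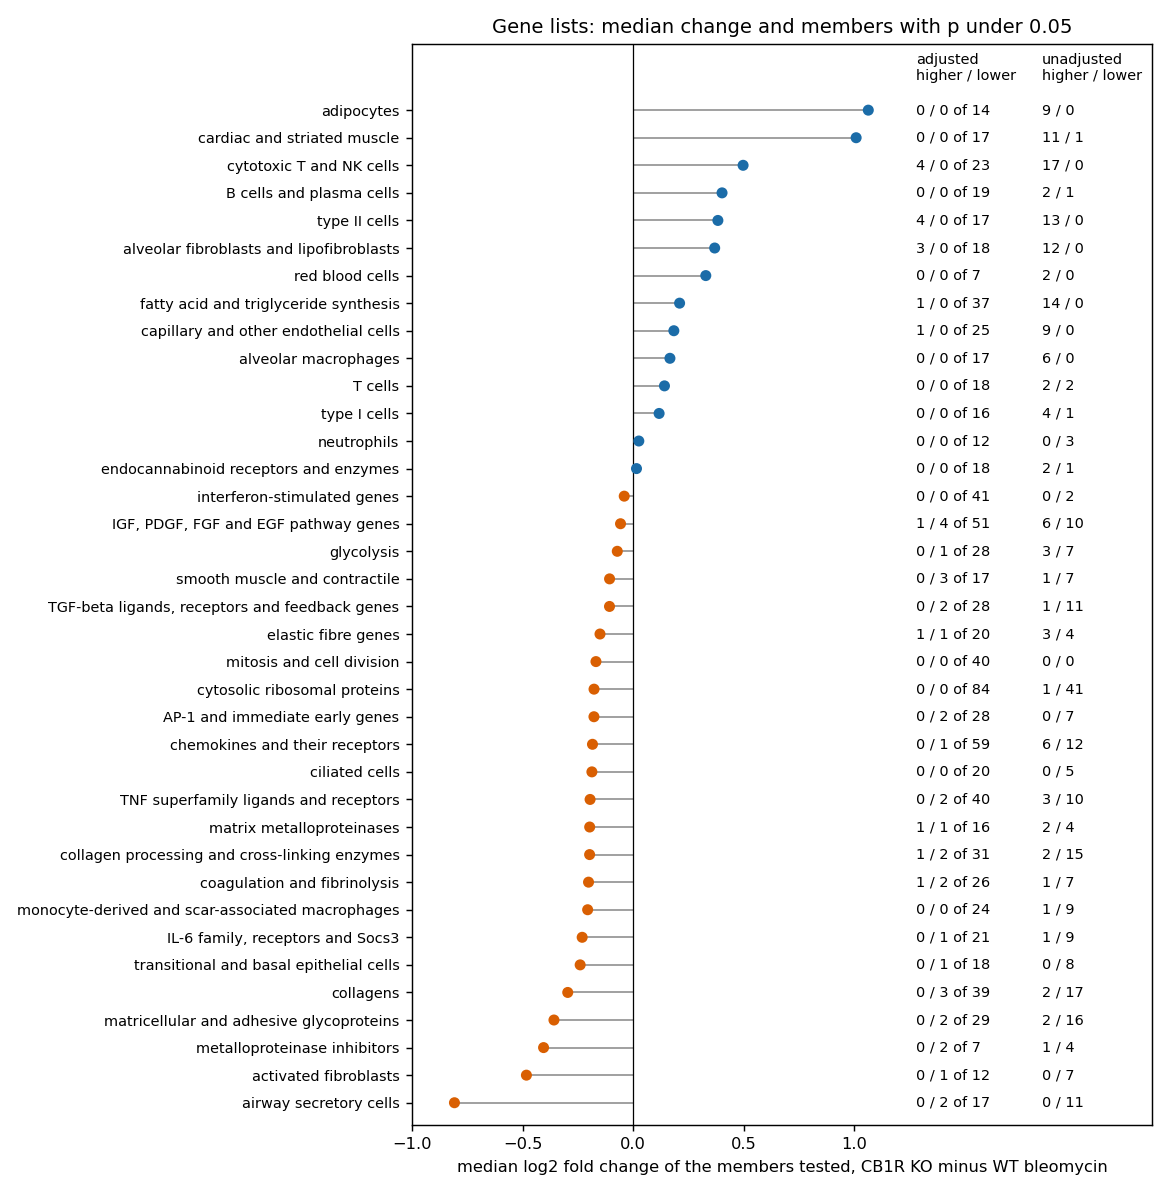
Median log2 fold change of the tested members of each of 37 gene lists, CB1R KO minus WT bleomycin. The first column gives the members higher and lower at an adjusted p under 0.05 with the number tested, and the second those at an unadjusted p under 0.05, from edgeR. Adipocyte and striated muscle lists have the highest medians with 0 members called, and airway secretory cells the lowest.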

How the data were processed

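Poly-A RNA of the lower right lung lobe was sequenced as paired-end reads. Per the labels and methods, the authors quantified it with Kallisto on Ensembl transcripts (GRCm39 in the submitters' processing notes) and deposited estimated counts, which are not normalized, and TPM, both summed per gene symbol over protein-coding transcripts. Of the TPM table, 1 column matches no sample and was not used.

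Estimated counts were rounded, filtered with filterByExpr (15315 of 20270 genes) and scaled by TMM, and 13 libraries in 3 groups were fitted in edgeR 4.0.16 (R 4.3.3). The quasi-likelihood test compared CB1R KO with WT bleomycin, with Benjamini-Hochberg adjustment over all genes tested. A prior count of 2 entered log2 CPM. Log2 fold changes had a median standard error of 0.113. On simulated data of this comparison (15315 genes, 200 changed 4-fold), 192 were called with the right sign and 5 others were called. Most real changes were smaller: 30 of the 95 lower and 6 of the 55 higher genes called changed more than 2-fold. Recovery of changes of that smaller size was not tested.

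Totals were similar in 12 libraries, and CB1R KO 11 held 3.33 times the median of the others. Alternatives were other filters, RLE and upper-quartile scaling, DESeq2 1.42.0, limma 3.58.1 on log2 TPM (pseudocounts 1 and 0.1), 9 libraries, label style, each library left out, and CB1R KO 11 thinned.

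The members, lists and rules were chosen with earlier results of these data known. Named genes were Cnr1, the 15 lowest p in each direction among genes past the threshold whose groups do not overlap, the 5 largest changes in each direction, and of each list the called members, up to 3 with the lowest p and up to 3 with the highest TPM. Of the genes so selected, 1 is not reported here, and it was left out of the lists. Lists were described by counts and medians, with no set test. Promoter sequences are those of RefSeq (GRCm38.p6), found for 12064 of the genes tested. Python 3.11.15 with pandas 2.3.3 and matplotlib 3.10.9 made the tables and plots.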

Additional observations from a re-analysis of the deposited data

Results flagged for a closer look

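Of 254 groups of library values looked at (log2 CPM of the named genes, list sums and library totals, each in WT and CB1R KO bleomycin), 11 had 1 library further from the rest than Dixon's critical value for its group size (0.829 for 4 and 0.71 for 5 samples). Chance alone flags about 1 group in 20. CB1R KO 11 stood apart in its total of estimated counts (gap over range 0.965) and was the lowest CB1R KO library in Muc5ac (0.867), Tnfrsf12a (0.856) and Aldh1a3 (0.84). CB1R KO 10 was the highest in Fn1 (0.885), Cldn2 (0.895) and the summed glycolysis genes (0.84), and the lowest in Aox3 (0.854). CB1R KO 8 was the lowest in A2m (0.866). WT 4 was the lowest WT library in P4ha3 (0.765), and WT 5 in the summed level of the genes neighbouring Cnr1 (0.857).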

How the results depend on the processing

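Of 150 genes called, the count stayed within 1.5 times of that number in 9 of 25 alternatives and moved further in 16. It was 640 with DESeq2 on 13 libraries, 644 with DESeq2 on the 9 bleomycin libraries, 93 with limma on log2 TPM at a pseudocount of 0.1, 88 with edgeR on 9 libraries, 41 with the label style as a batch term and 6 with lower-case labels alone. DESeq2 called all of the 150 in both fits. Leaving out 1 library gave 1 to 653 genes: 1, 3 and 9 without CB1R KO 9, 11 and 8, 653 without CB1R KO 10, 24, 30, 35 and 62 without WT 5, 4-B2, 7 and 2, 230 without WT 4, and 85 without control 24. A fit with fewer libraries also has fewer degrees of freedom, and the number fell in some of these fits and rose in others. The causes of these shifts were not tested. Among the values of 88 named genes under the alternatives, 1471 kept their side of the threshold, 691 no longer passed, 29 newly passed and 0 changed sign. Medians changed sign in at least 1 alternative for 6 of 38 lists, all of them with a median within 0.2 of 0 (endocannabinoid genes, glycolysis, interferon-stimulated genes, mitosis, neutrophils and the neighbours of Cnr1). No paired analysis was possible because WT and CB1R KO bleomycin mice share no replicate number.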
